A study of Homo sapiens with 16 samples.

Results

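Transcripts of 10 origin licensing and firing factors, *GINS1*, *GINS2*, *GINS3*, *GINS4*, *CDC45*, *CDC6*, *CDT1*, *ORC1*, *ORC6* and *GMNN*, were followed through RNA-seq libraries of HCT116, an established human colorectal carcinoma cell line. The genes were chosen by name, with earlier results of these data known, and all 10 were found among the 33937 genes of the count table. The cells were stable lines that carry either a scrambled hairpin (SCR) or a hairpin RNA against *NAA40* (NAA40-KD), a histone N-terminal acetyltransferase, each designed to be switched on by doxycycline (dox). Total RNA was sequenced from both lines, labelled as grown with dox (1 μg/ml, 96 h) and with none, and each of the 4 groups holds 4 libraries. The groups are written SCR (−dox) and SCR (+dox) for the control and NAA40-KD (−dox) and NAA40-KD (+dox) for the knockdown line. All 16 libraries came from engineered derivatives of the same cell line, and a single hairpin line is named for the RNA-seq, so an effect of that hairpin's sequence cannot be told apart from one of *NAA40*.

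Origins of replication are made ready in G1 and used in S phase. The origin recognition complex (ORC), with CDC6 and CDT1, loads the MCM helicase onto DNA, a step called licensing, and geminin (GMNN) blocks CDT1 so that no origin is licensed again in the same cycle. In S phase, kinases recruit CDC45 and the GINS complex to the loaded MCM ring, which then becomes the active CMG helicase. Many of these genes are classical targets of the E2F transcription factors and are transcribed mainly around the G1/S transition.

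The targeted gene went against the dox labels of the NAA40-KD line, so every group is given here by its label, and (−dox) and (+dox) stand for labels throughout. Whether those labels were exchanged in this line is not given in the sources used here. If they were, each comparison of the lines at the same label would set dox-treated against untreated cells. *NAA40* was at 12.6, 11.6, 9.27 and 13.8 CPM (reads scaled to the library total after TMM normalization) in libraries carrying the label NAA40-KD (−dox). It was at 31.5, 29.3, 28.7 and 31.9 CPM in those labelled NAA40-KD (+dox). The SCR libraries ranged from 25.9 to 34.5 CPM, so the NAA40-KD (−dox) libraries alone were low and did not overlap any other group. *NAA40* was at 40.4% of SCR (−dox) in NAA40-KD (−dox) (log2 fold change −1.31 ± 0.18 SE, adjusted p = 0.00521, edgeR), and the change with the (+dox) label was 0.15 ± 0.096 (adjusted p = 0.281, edgeR). Total counts ran from 11065606 to 13855486 per library. Epithelial markers were present in all libraries (*EPCAM* at 257 to 397 CPM), apart from *VIL1* and *CDX1*, at no more than 3 counts, and the leukocyte markers stayed at no more than 6 counts per library. Of the fibroblast and endothelial markers, *COL1A1* (56.7 to 195 CPM) and *VWF* (7 to 34 counts) exceeded 5 counts in a library, whereas *COL1A2*, *COL3A1*, *PDGFRA*, *DCN*, *PECAM1* and *CDH5* did not.

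One library stood apart. NAA40-KD (−dox) replicate 4 had a median correlation of 0.9237 with the libraries of its own group, against 0.9847 to 0.9929 for the other libraries. Its mitochondrial share of counts was 5.03% (6.42 to 14.3% in the others), and its summed epithelial markers reached 12500 CPM. That sum was also 5780 to 6760 CPM in the other 3 NAA40-KD (−dox) libraries, above the 4200 to 5420 CPM of SCR (−dox) and overlapping the 4820 to 6040 CPM of SCR (+dox). Against SCR (−dox), 1 of 8 tested epithelial markers, *CLDN4*, was called higher (1.37 ± 0.29, adjusted p = 0.0261, edgeR), with a median of 0.48, beside 2.88% of all tested genes. Without replicate 4 it was 4 of 8 with a median of 0.27, beside 17.1% of all tested genes. The summed fibroblast markers, nearly all *COL1A1*, stood at 195 CPM in replicate 4 and at 56.9 to 93.7 CPM elsewhere. The part of these differences in the members' change was not tested.

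Sequence upstream of the members is shown because a shared E2F-type octamer is the feature that the choice of genes did not use. In RefSeq windows (GRCh38.p14) from 250 bases before to 50 bases after each annotated start, TTTCCCGC, TTTGGCGC, TTTCGCGC or TTTGCCGC was searched on both strands. A match was found for 6 of the 9 members with a window, *GINS1*, *GINS2*, *GINS3*, *CDC6*, *CDT1* and *GMNN*, while 3.31% of all 35116 windows held one. The windows of *CDC45*, *ORC1* and *ORC6* held none, and *GINS4* had no entry. By window rather than by gene, which is the measure of the 3.31%, 6 of 12 member windows held a match. The match was not particular to the members. Among other genes with a window it was found for 4 of 4 MCM, 2 of 3 fork protection, 6 of 14 firing and 5 of 12 licensing control genes. It was also found for 7 of 20 S phase genes, 2 of 15 mitosis genes and 1 of 5 further ORC genes. The stretches below run for 125 bases, from 100 bases before the start, 5′ to 3′ on the strand of the gene, with the match in capitals. A match in these letters describes the window and is not evidence of binding. The positions are chr20:25407573-25407697 (+ strand), chr16:85688930-85689054 (− strand), chr16:58392371-58392495 (+ strand), chr17:40287779-40287903 (+ strand), chr16:88803689-88803813 (+ strand) and chr6:24775313-24775437 (+ strand), in the order of the lines.
GINS1: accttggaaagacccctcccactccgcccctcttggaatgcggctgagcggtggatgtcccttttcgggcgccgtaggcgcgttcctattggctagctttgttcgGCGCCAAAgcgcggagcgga
GINS2: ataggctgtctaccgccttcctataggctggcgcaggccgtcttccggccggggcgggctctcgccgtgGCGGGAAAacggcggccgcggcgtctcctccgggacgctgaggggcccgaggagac
GINS3: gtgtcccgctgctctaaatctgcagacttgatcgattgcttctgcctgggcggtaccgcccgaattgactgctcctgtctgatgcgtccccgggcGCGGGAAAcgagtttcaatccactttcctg
CDC6: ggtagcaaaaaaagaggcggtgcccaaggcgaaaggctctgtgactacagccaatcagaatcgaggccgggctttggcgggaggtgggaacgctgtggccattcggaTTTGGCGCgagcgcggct
CDT1: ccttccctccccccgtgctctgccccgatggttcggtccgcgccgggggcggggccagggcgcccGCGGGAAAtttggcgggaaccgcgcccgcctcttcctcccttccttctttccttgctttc
GMNN: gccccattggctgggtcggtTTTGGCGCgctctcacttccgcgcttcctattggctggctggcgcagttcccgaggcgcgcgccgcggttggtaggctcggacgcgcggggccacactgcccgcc
In *GINS1*, *GINS2*, *GINS3* and *CDT1* the octamer lies in reverse complement, and in *CDC6* and *GMNN* it reads forward. Counted from the start as 0, the match begins at −80 in *GMNN*, −35 in *CDT1*, −31 in *GINS2*, −5 in *GINS3*, 5 in *GINS1* and 7 in *CDC6*. The octamer matches were TTTCCCGC in *GINS2*, *GINS3* and *CDT1* and TTTGGCGC in *GINS1*, *CDC6* and *GMNN*.

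Origin factor transcripts were lower in the libraries with low *NAA40*. In NAA40-KD (−dox) against SCR (−dox), 7 of the 10 genes fell at an adjusted p under 0.05 (edgeR), namely *GINS2*, *GINS3*, *GINS4*, *CDC45*, *CDC6*, *ORC1* and *ORC6*, and 0 rose. Of all 13903 genes tested, 3.54% were called lower and 2.88% higher, a background and not a test of a set chosen with earlier results known. All of these except *ORC1* also passed an absolute log2 fold change of 1, a bar that 1.85% of the tested genes passed downwards. The median log2 fold change of the 10 genes was −1.07, against 0.04 over all tested genes, and the estimates ran from −1.69 for *GINS3* to −0.59 for *GINS1*. The groups did not overlap for 8 of the 10, the 7 called genes and *GMNN*, with 11.9% of all tested genes lower in this way. In RNA from whole cultures, fewer cells in S phase and less of each RNA per cell cannot be told apart.

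**Figure D1:**
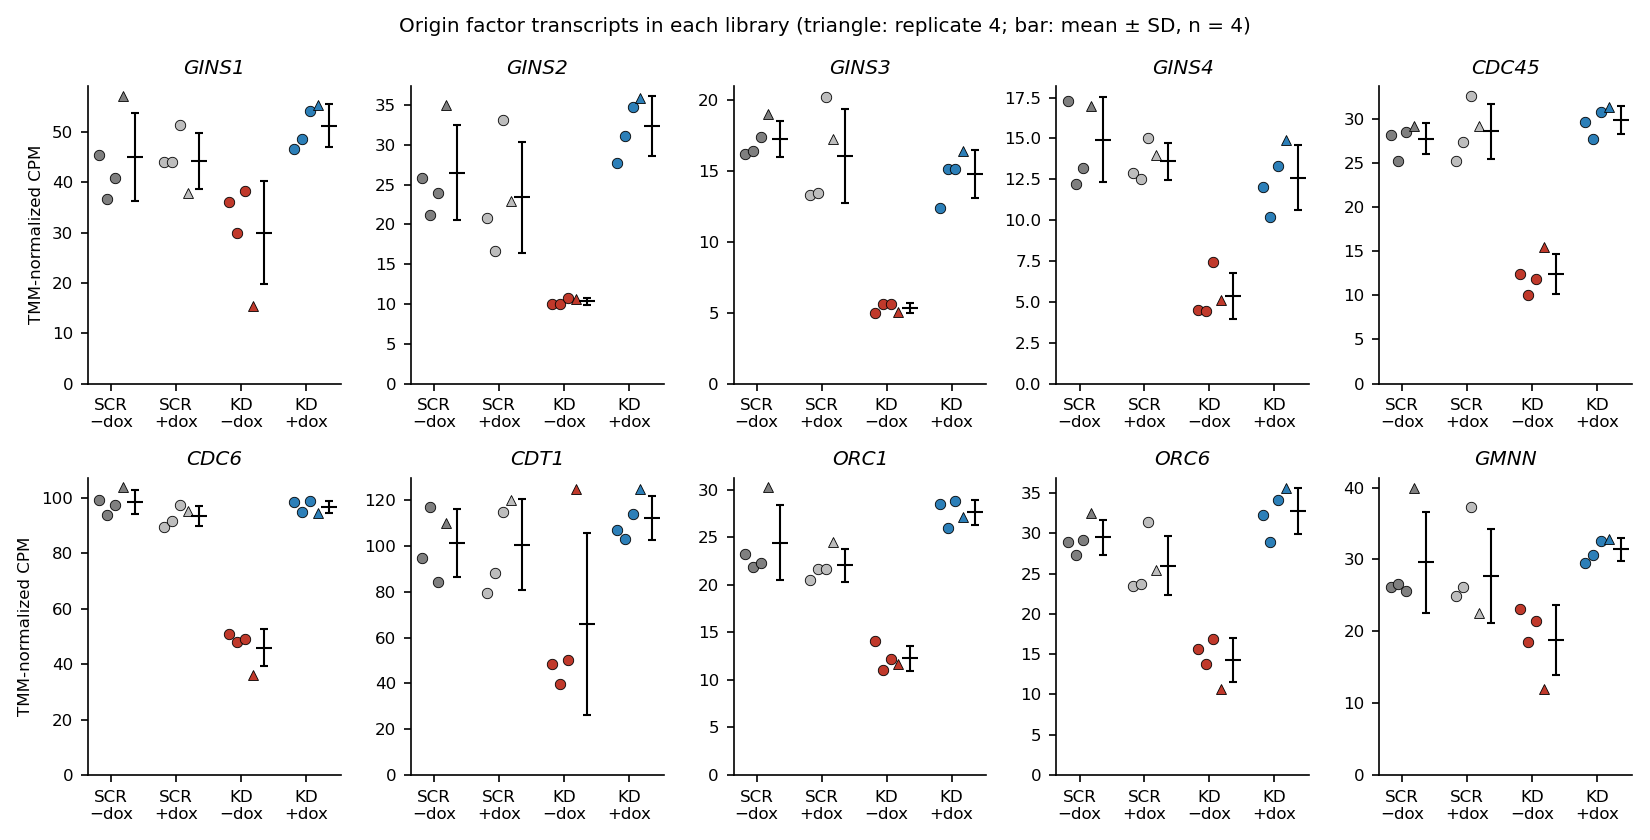
TMM-normalized CPM (y axis, starting at 0) of each origin factor in the 16 libraries, grouped on the x axis by line (KD stands for NAA40-KD) and dox label, with each group's mean ± SD (n = 4) beside its points and replicate 4 of each group as a triangle. The KD −dox points lie below those of the 3 other groups for *GINS2*, *GINS3*, *GINS4*, *CDC45*, *CDC6*, *ORC1* and *ORC6*, while for *CDT1* the triangle, at 125 CPM, lies among the other groups.

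Among the ORC subunits, *ORC1*, the large ATPase subunit whose protein is itself cell cycle regulated, was at 23.2, 21.9, 22.3 and 30.3 CPM in SCR (−dox) and at 14.1, 11, 12.2 and 11.7 CPM in NAA40-KD (−dox). The groups were well separated, and replicate 4 of SCR (−dox) was the highest library. *ORC1* thus stood at 50.4% of SCR (−dox), a log2 fold change of −0.99 ± 0.17 (adjusted p = 0.0118, edgeR). *ORC6*, the smallest subunit, was at 28.9, 27.3, 29.2 and 32.6 CPM in SCR (−dox) and at 15.7, 13.8, 16.9 and 10.7 CPM in NAA40-KD (−dox). Again no NAA40-KD (−dox) library reached the lowest control. The log2 fold change of *ORC6* was −1.04 ± 0.17 (adjusted p = 0.0101, edgeR).

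*CDC6*, the ATPase that joins ORC to load the helicase, was at 99.3, 93.8, 97.3 and 104 CPM in SCR (−dox) and at 51.0, 47.9, 49.0 and 36.1 CPM in NAA40-KD (−dox). Its control values were the tightest of the set relative to their mean, and all NAA40-KD (−dox) libraries lay far beneath them. The level fell to 46.8% of SCR (−dox) (log2 fold change −1.10 ± 0.15, adjusted p = 0.0051, edgeR).

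*CDT1*, which brings the MCM ring to ORC and *CDC6*, behaved differently in a single library. It was at 94.7, 117, 84.1 and 110 CPM in SCR (−dox) and at 48.6, 39.8, 50.3 and 125 CPM in NAA40-KD (−dox). The first 3 NAA40-KD (−dox) libraries lay below all controls and replicate 4 above all of them. The log2 fold change was −0.61 ± 0.35 and did not pass the test (adjusted p = 0.328, edgeR), whereas without replicate 4 it was −1.14 ± 0.12 (adjusted p = 4.72e-06, edgeR).

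*GMNN*, the inhibitor of *CDT1*, was at 26.1, 26.6, 25.6 and 40 CPM in SCR (−dox) and at 23.1, 18.5, 21.4 and 12 CPM in NAA40-KD (−dox). The groups did not overlap, but the gap between the highest NAA40-KD (−dox) library and the lowest control was small. The difference, −0.65 ± 0.24, did not pass the test over all genes (adjusted p = 0.13, edgeR). Without NAA40-KD (−dox) replicate 4, the lowest of its group, it was smaller but passed (−0.50 ± 0.15, adjusted p = 0.0189, edgeR).

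Of the firing factors, *CDC45*, which completes the helicase together with GINS, was at 28.2, 25.2, 28.5 and 29.2 CPM in SCR (−dox) and at 12.4, 10.0, 11.9 and 15.5 CPM in NAA40-KD (−dox). Replicate 4 was here the highest of its group and still well under the controls. The log2 fold change was −1.15 ± 0.17 (adjusted p = 0.00698, edgeR).

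The GINS complex holds *GINS1* to *GINS4* in equal numbers, and 3 of its 4 transcripts fell. *GINS2* was at 25.8, 21.2, 24.0 and 35.0 CPM in SCR (−dox) and at 10.0, 9.97, 10.7 and 10.6 CPM in NAA40-KD (−dox). The NAA40-KD (−dox) values were nearly identical and the controls spread more widely. *GINS2* fell by 1.36 ± 0.19 on the log2 scale (adjusted p = 0.00532, edgeR). *GINS3* was at 16.2, 16.4, 17.4 and 19.0 CPM in SCR (−dox) and at 5.00, 5.63, 5.62 and 5.02 CPM in NAA40-KD (−dox). It showed the largest change of the 10 genes, to 31.1% of SCR (−dox) (log2 fold change −1.69 ± 0.15, adjusted p = 0.00183, edgeR).

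*GINS4* was at 17.3, 12.2, 13.2 and 17.0 CPM in SCR (−dox) and at 4.48, 4.41, 7.44 and 5.11 CPM in NAA40-KD (−dox), that is on 58 to 102 counts per library in the latter group. The groups were apart, with replicate 3 the nearest to the controls. The log2 fold change was −1.47 ± 0.22 (adjusted p = 0.00748, edgeR). *GINS1* was at 45.5, 36.7, 40.9 and 57.1 CPM in SCR (−dox) and at 36.1, 30.0, 38.2 and 15.5 CPM in NAA40-KD (−dox). These groups overlapped, and replicate 4 of NAA40-KD (−dox) was far below its mates. *GINS1* did not pass the test with all libraries (−0.59 ± 0.27, adjusted p = 0.226, edgeR), and without that replicate it was lower by a smaller step (−0.38 ± 0.14, adjusted p = 0.0415, edgeR).

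The members lie on different chromosomes apart from 4 genes on chromosome 16. On GRCh38 (GENCODE release 29) these are *ORC6* (ENSG00000091651) at chr16:46689643-46698394 (+ strand), *GINS3* (ENSG00000181938) at chr16:58295080-58406144 (+ strand), *GINS2* (ENSG00000131153) at chr16:85676198-85690073 (− strand) and *CDT1* (ENSG00000167513) at chr16:88803213-88809258 (+ strand). The licensing genes elsewhere are *ORC1* (ENSG00000085840) at chr1:52372829-52404459 (− strand), *CDC6* (ENSG00000094804) at chr17:40287633-40304657 (+ strand) and *GMNN* (ENSG00000112312) at chr6:24774931-24786099 (+ strand). The firing genes elsewhere include *GINS1* (ENSG00000101003) at chr20:25407727-25452628 (+ strand) and *CDC45* (ENSG00000093009) at chr22:19479459-19520612 (+ strand). All counts are of reads over the exons of each gene as a whole, so isoforms were not separated.

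The annotation (GENCODE release 29, GRCh38) placed exon overlaps with other genes at 3 members. *GINS2* shares 7 exonic bases with *GSE1* on the opposite strand, *GINS3* shares 558 with the antisense gene *AC009118.2*, and *GINS4* shares 131 and 1159 with the antisense genes *AC009630.1* and *AC009630.2*. Since the strand setting of the counting was not given in the sources used here, reads from these antisense partners cannot be separated from the 3 genes. The other 7 members overlap no exon of another gene.

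Within-library ratios asked whether members moved unequally. Relative to the mean of the other GINS genes, *GINS1* was 0.84 higher on the log2 scale in NAA40-KD (−dox) than in SCR (−dox) (exact two-sided permutation p = 0.0571, 0.2 adjusted over 14 tests). *GINS3* was 0.52 lower by the same measure, from −0.58 ± 0.21 to −1.10 ± 0.22 (SD, n = 4), and its exact permutation p of 0.0286 (adjusted 0.2) is the lowest this design can give. The log2 ratio of *CDT1* to *GMNN* differed by −0.10 (exact permutation p = 0.914), with a range of 1.07 to 3.36 in NAA40-KD (−dox) set by replicate 4, and by −0.66 without that library. Likewise the ratio of *CDC6* to *CDT1* differed by −0.34 with it and by 0.13 without it. None of the 14 ratio tests passed after adjustment. Even ratios at the lowest possible p of 0.0286 had an adjusted p of 0.2 (exact permutation). These tests therefore cannot decide whether the members moved unequally.

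Relative to the mean of its mates, NAA40-KD (−dox) replicate 4 was unlike them in several members and in both directions. It was 1.44 higher on the log2 scale for *CDT1*, 2.71 times the mean CPM of the other 3, and 0.44 higher for *CDC45*. It was lower by 1.15 for *GINS1*, 0.79 for *GMNN*, 0.52 for *ORC6* and 0.45 for *CDC6*. For *GINS2*, *GINS3*, *GINS4* and *ORC1* it differed by no more than 0.10. Without this library all 10 members were called lower, in a fit that called 19.4% of all 13751 genes lower, so that the members' count there stands against a much larger background. The median of the 10 genes was −1.07 with and without it.

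**Figure D2:**
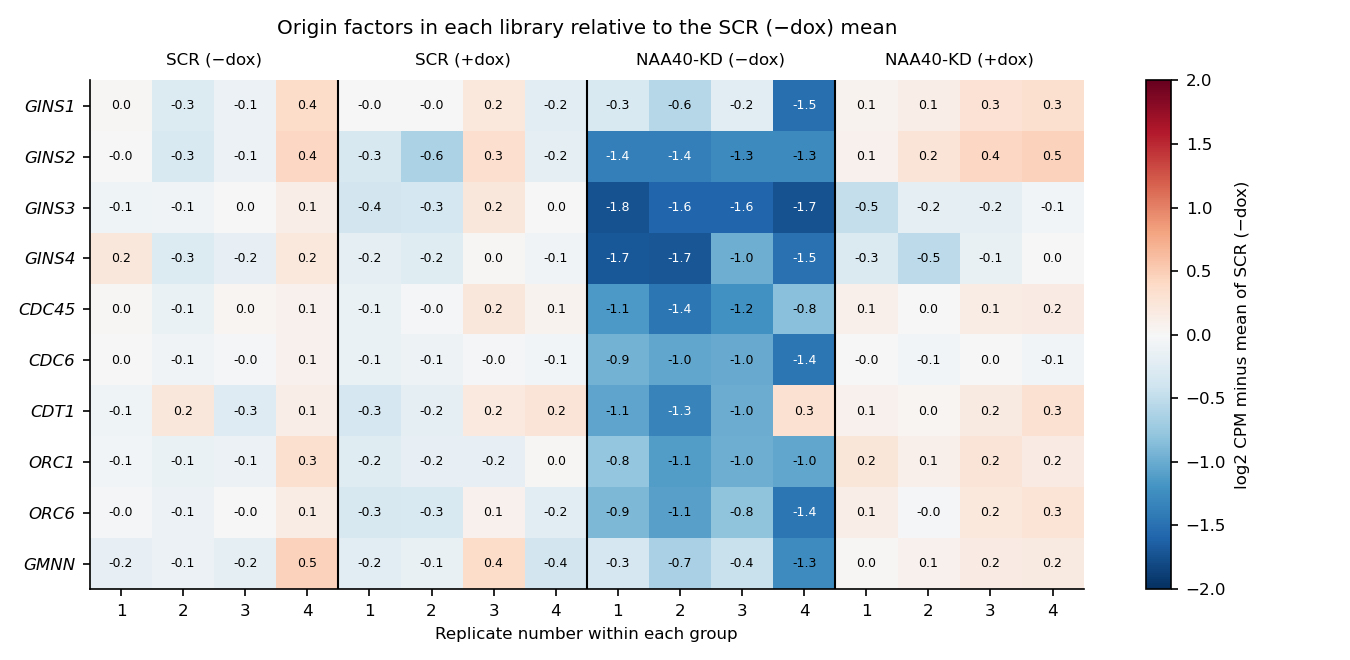
log2 CPM of each origin factor (rows) in each library (columns, by group and replicate number) minus the mean of that gene in SCR (−dox); blue is lower and red higher, with the difference printed in each cell. The NAA40-KD (−dox) block is below 0 apart from *CDT1* in replicate 4, and is pale for *GINS1* and *GMNN* in replicates 1 to 3 (−0.65 to −0.22). The other 3 groups range from −0.64 to 0.46.

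**Figure D3:**
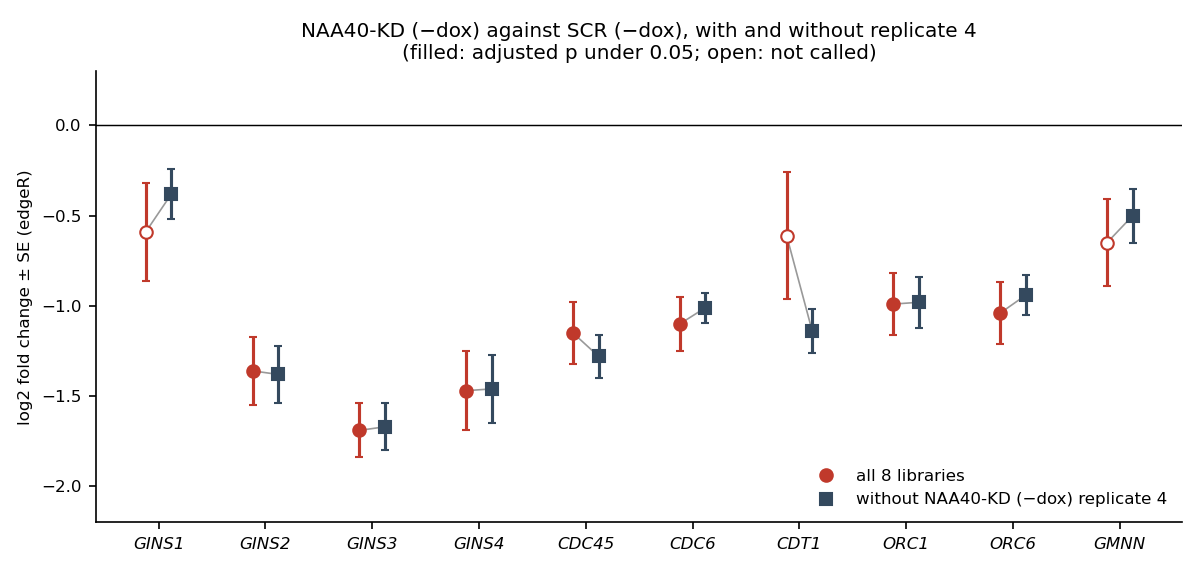
log2 fold change ± SE (y axis) of each origin factor in NAA40-KD (−dox) against SCR (−dox), with all 8 libraries (circles) and without NAA40-KD (−dox) replicate 4 (squares), filled where the adjusted p was under 0.05. *CDT1* moved from −0.61 to −1.14, *GINS1* from −0.59 to −0.38 and *GMNN* from −0.65 to −0.50, and the other 7 genes were called in both.

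At the (+dox) label, where both lines had *NAA40* at control level, the members differed less. In NAA40-KD (+dox) against SCR (+dox), 3 of the 10 rose, *GINS2*, *ORC1* and *ORC6*, and 0 fell, where 10.9% of all 13869 tested genes were called higher and 13.7% lower. The median of the members was 0.17, against 0.00 over all tested genes.

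*GINS2* was at 27.7, 31.1, 34.8 and 35.9 CPM in NAA40-KD (+dox) and at 20.8, 16.7, 33.1 and 23.0 CPM in SCR (+dox). The groups overlapped through SCR (+dox) replicate 3, and the log2 fold change was 0.47 ± 0.16 (adjusted p = 0.0351, edgeR). *ORC6* overlapped through the same control library, with 32.3, 29, 34.1 and 35.7 CPM in NAA40-KD (+dox) and 23.5, 23.7, 31.4 and 25.4 CPM in SCR (+dox) (0.33 ± 0.11, adjusted p = 0.038, edgeR).

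*ORC1* was the single member whose groups did not overlap, which 13.2% of all tested genes did in the upward direction. It was at 28.5, 26.0, 28.8 and 27.1 CPM in NAA40-KD (+dox) and at 20.5, 21.6, 21.6 and 24.5 CPM in SCR (+dox) (0.32 ± 0.10, adjusted p = 0.0254, edgeR). The other 7 members had estimates from −0.12 for *GINS3* to 0.21 for *GINS1*, none of which passed.

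Of those 7, *GINS1* was at 46.7 to 55.5 CPM in NAA40-KD (+dox) and at 37.8 to 51.4 CPM in SCR (+dox). *CDT1* ranged from 103 to 125 CPM against 79.4 to 120 CPM, and *CDC6* from 94.6 to 98.8 CPM against 89.6 to 97.4 CPM. The groups overlapped for all 3, and *CDC6* again varied least. *CDC45* was at 27.7 to 31.3 CPM against 25.2 to 32.6 CPM in SCR (+dox), and *GMNN* at 29.5 to 32.9 CPM against 22.6 to 37.3 CPM. *GINS3* (12.4 to 16.4 CPM) and *GINS4* (10.2 to 14.9 CPM) overlapped SCR (+dox), at 13.3 to 20.2 and 12.5 to 15.0 CPM.

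*GINS2* relative to the other GINS genes was 0.51 higher (exact permutation p = 0.0286, adjusted 0.2). The calls of *GINS2*, *ORC1* and *ORC6* depended on the fit and on single libraries. In a fit over all 16 libraries 0 of the 10 members were called (3 at an unadjusted p under 0.05, edgeR), where 1.93% of all genes were higher. DESeq2 and limma-voom on the 8 libraries each called 3, beside 11.8% and 11.3% of all genes higher. Leaving out single libraries gave 0 to 5 calls, beside 7.03 to 11.3% of all genes higher.

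**Figure D4:**
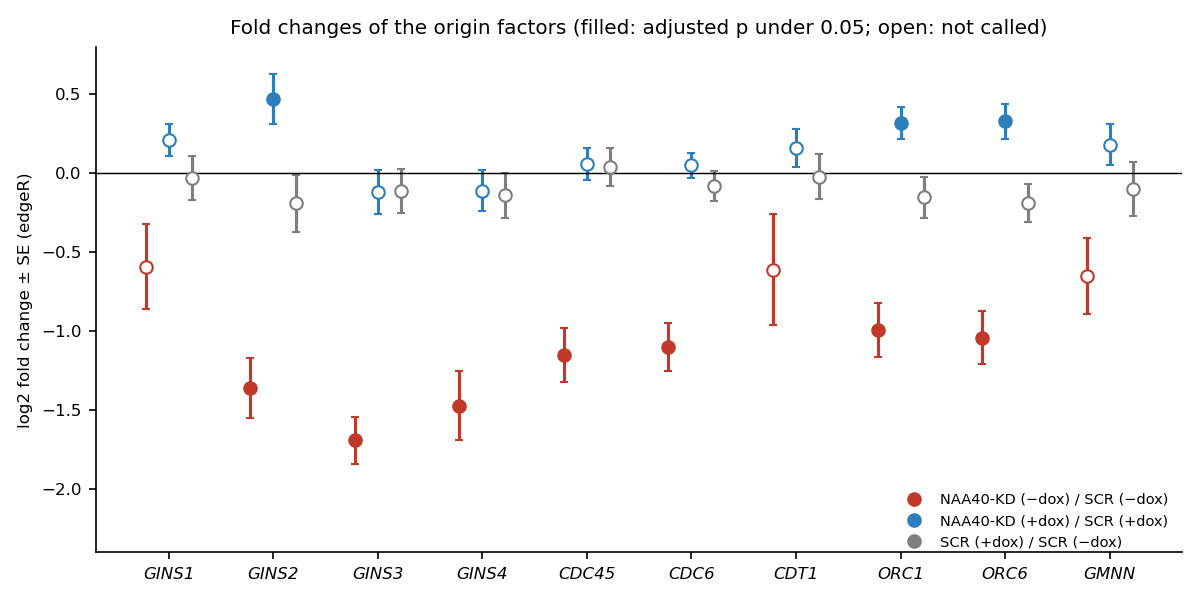
log2 fold change ± SE (y axis, edgeR) of each origin factor in NAA40-KD against SCR at −dox (red) and at +dox (blue) and in SCR (+dox) against SCR (−dox) (grey), filled where the adjusted p was under 0.05. All red points lie below 0, from −1.69 to −0.59, while the blue points lie between −0.12 and 0.47 and the grey points between −0.19 and 0.04.

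Within the NAA40-KD line, 8 of 10 members were lower in the libraries labelled (−dox) than in those labelled (+dox), with 4.71% of all 13844 tested genes called lower. Of these 8, all but *GMNN* passed an absolute log2 fold change of 1, which 1.59% of tested genes did downwards. *GINS2* showed the largest difference (−1.65 ± 0.14, adjusted p = 0.00134, edgeR), followed by *GINS3* (−1.47 ± 0.14, adjusted p = 0.0015, edgeR). The groups did not overlap for 9 members, all but *CDT1* (15.5% of all tested genes were lower in this way), and the median was −1.18, against 0.04 over all tested genes. *GINS1* (−0.77 ± 0.25, adjusted p = 0.0847, edgeR) and *CDT1* (−0.76 ± 0.34, adjusted p = 0.184, edgeR) did not pass. *GMNN* passed narrowly (−0.74 ± 0.20, adjusted p = 0.0437, edgeR) and did not pass when any library other than NAA40-KD (−dox) replicate 4 was left out (adjusted p 0.0513 to 0.13, edgeR). Without that replicate all 10 were called, with a background of 25.8% lower, and *CDT1* was at −1.28 ± 0.080 and *GINS1* at −0.56 ± 0.084. This comparison shares the NAA40-KD (−dox) libraries with that against SCR (−dox) and the NAA40-KD (+dox) libraries with that against SCR (+dox), so the lists of calls are not independent.

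Because of the *NAA40* levels, the low libraries were also set against the control with the other label, a comparison added after the data had been seen. In NAA40-KD (−dox) against SCR (+dox), *GINS2*, *GINS3*, *GINS4*, *CDC45*, *CDC6*, *ORC1* and *ORC6* fell, 7 of 10, where 3.48% of all 13916 tested genes were called lower. The members' median was −0.94, with *GINS3* at −1.58 ± 0.193 (adjusted p = 0.00287, edgeR) and *CDT1* at −0.59 ± 0.355 (adjusted p = 0.358, edgeR). In these groups same-numbered libraries deviated together in every pair (all 4 correlations above 0.1, the highest 0.646). Deviations were taken from each group's own mean, which the outlying replicate 4 shifts, so the 4 correlations are not independent. Whether each library matched its own number best was not checked here, so pairing is not established. With the replicate number as a block 7 members were again called, against 7.29% of all genes. Without NAA40-KD (−dox) replicate 4 it was 9 members, all but *GMNN*, against 17.3% of all genes. The comparison shares its libraries with those above and is not independent of them.

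In the scrambled line the dox label went with no call. In SCR (+dox) against SCR (−dox), 0 of 10 members and 0% of all 13882 tested genes passed (edgeR), with estimates from −0.19 to 0.04 and a median of −0.10. None of the 10 had an unadjusted p under 0.05 in edgeR, 271 of all tested genes did, and DESeq2 and limma-voom also called 0 members. The standard errors of these estimates were 0.097 to 0.18.

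The difference of the line effects between the dox labels was tested directly, as (NAA40-KD minus SCR at −dox) minus (NAA40-KD minus SCR at +dox) over all 16 libraries. The same 7 members that fell at the (−dox) label passed, all past an absolute log2 value of 1, with 4.31% of all 14392 genes called lower and 1.87% also past that value. *GINS2* led with −1.83 ± 0.27 (adjusted p = 0.000566, edgeR), and the smallest called value was −1.15 ± 0.16 for *CDC6* (adjusted p = 0.000332, edgeR). *GINS1* (−0.80 ± 0.30, adjusted p = 0.107, edgeR), *CDT1* (−0.79 ± 0.38, adjusted p = 0.213, edgeR) and *GMNN* (−0.84 ± 0.28, adjusted p = 0.0752, edgeR) did not pass. Without NAA40-KD (−dox) replicate 4 all 10 passed, with a background of 11.9%, and *CDT1* was at −1.29 ± 0.18, *GMNN* at −0.67 ± 0.22 and *GINS1* at −0.58 ± 0.18.

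The other genes of origin licensing and firing were counted by role, in NAA40-KD (−dox) against SCR (−dox). Of 46 genes, 18 fell and 0 rose, with a median of −0.69, beside 3.54% of all tested genes called lower. The number called in either direction was 30 in a fit over all 16 libraries (10.5% of all genes lower, 10.0% higher). With a replicate block it was 4 (0.417% lower, 0.173% higher). The core ORC subunits and *LRWD1*, an ORC partner, held 0 called genes of 5 in either direction (0 at an unadjusted p under 0.05 in edgeR, DESeq2 or limma-voom, median −0.07), unlike *ORC1* and *ORC6*, though the difference between them was not tested. Of the 6 MCM helicase subunits, *MCM3* (−1.42), *MCM4* (−1.41) and *MCM6* (−0.84) were called lower and the median was −0.92. All 6 estimates were below 0 with an unadjusted p under 0.05 (edgeR), a p that 3278 of all 13903 tested genes reached. Without NAA40-KD (−dox) replicate 4 all 6 were called lower, where 19.4% of all genes were. *MCM6* was also lower in the NAA40-KD line at the (+dox) label (−0.93). Without NAA40-KD (−dox) replicate 4 it was higher in NAA40-KD (−dox) than in NAA40-KD (+dox) (0.41 ± 0.067, adjusted p = 1.74e-05, edgeR).

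Among 19 firing kinases and loading factors, 8 fell, led by cyclin E gene *CCNE2* (−1.59), *MCM10* (−1.57), which acts on the assembled helicase, the DNA polymerase epsilon subunit gene *POLE2* (−1.29) and *MTBP* (−1.19), a partner of the origin firing factor *TICRR*. In the fork protection group *CLSPN* (−1.38), which encodes the checkpoint mediator claspin, was called lower, as 1 of 3. All 3 had an unadjusted p under 0.05 (edgeR), which 3278 of all 13903 tested genes also reached. Of 13 genes that control licensing, 6 fell, among them *DTL* (−1.65), which directs the degradation of *CDT1*, *E2F2* (−1.35), *FBXO5* (−1.27), an inhibitor of the anaphase-promoting complex, and *E2F1* (−1.08). Of all tested genes, 3.54% were called lower in this comparison. These lists were written with earlier results of these data known.

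Genes of S phase that are not origin factors moved alongside, with 14 of 25 called lower, 0 higher and a median of −0.96. Of 20 mitosis genes 7 fell, 0 rose, and the median was −0.73, while 3.54% of all tested genes were called lower. The mean log2 CPM of the S phase list ranged from 4.92 to 5.28 in NAA40-KD (−dox) and from 5.90 to 6.35 in the other 12 libraries, and that of the mitosis list from 5.76 to 6.35 and from 6.64 to 6.92. Neither list overlapped between NAA40-KD (−dox) and the others, and their part in the members' change was not tested. Without NAA40-KD (−dox) replicate 4, 32 of the 46 pathway genes, 24 of the S phase genes and 18 of the mitosis genes were called lower, against the background of 19.4%, and 1 pathway gene was called higher.

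At the (+dox) label, 12 of the 46 pathway genes rose and 2 fell, the median being 0.13, beside 10.9% of all tested genes higher and 13.7% lower. In a fit over all 16 libraries 2 of these 46 were called, where 1.93% of all genes were higher and 4.78% lower. *MCM6* (−0.93) and the licensing acetyltransferase gene *KAT7* (−0.36) were the genes that fell, and *MCM4* (0.32), *POLE2* (0.41) and *CLSPN* (0.36), all lower in NAA40-KD (−dox), were here among those that rose. Mitosis genes fell in 6 of 20 cases and rose in 0, while 6 of 25 S phase genes rose and 2 fell.

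**Figure D5:**
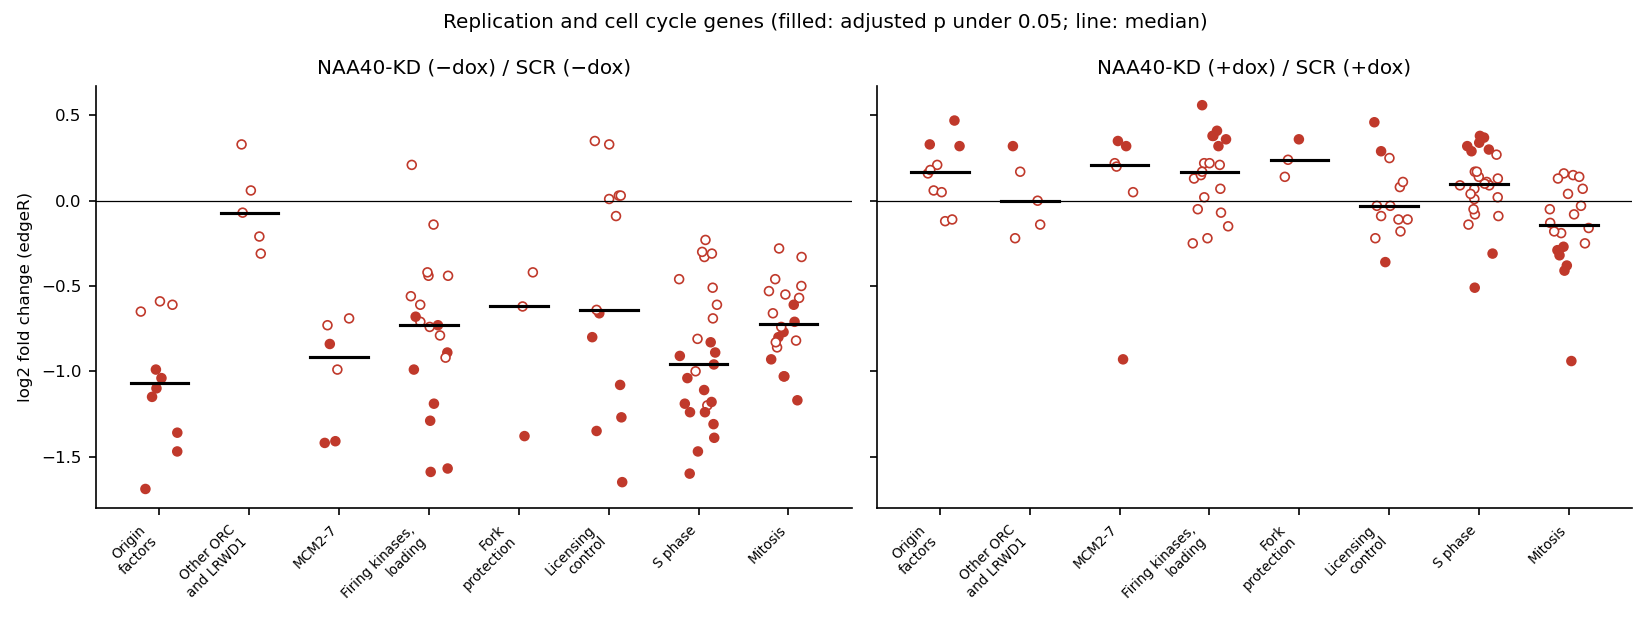
log2 fold change (y axis, edgeR) of each gene of the origin factor set, the other licensing and firing groups, S phase and mitosis (x axis), for NAA40-KD against SCR at −dox on the left and at +dox on the right, filled where the adjusted p was under 0.05, with a line at each group's median. On the left the medians run from −1.07 (origin factors) to −0.07 (other ORC subunits and *LRWD1*), and on the right the origin factor median is 0.17.

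Between genes, levels were compared per kb of exon. In SCR (−dox), *CDT1* was the highest of the 10 at 30.4 ± 4.49 CPM per kb (SD, n = 4), followed by *CDC6* at 17.7 ± 0.776, and neither overlapped the next gene in the order. *GMNN*, *GINS1*, *CDC45*, *GINS2*, *ORC1* and *ORC6* came next, from 11.9 ± 2.8 down to 6.85 ± 0.512 CPM per kb, each overlapping its neighbour. *GINS3* (3.37 ± 0.248) and *GINS4* (2.73 ± 0.479) were the lowest and did not overlap *ORC6*. They barely missed each other, with *GINS3* at 3.17 or more and *GINS4* at 3.16 or less, and overlapped in every other group. In NAA40-KD (−dox) the order kept *CDT1* first and *GINS3* and *GINS4* last. The mean of *GINS2*, which overlapped *ORC1* in SCR (−dox), was below those of *ORC1* and *ORC6* in NAA40-KD (−dox), at 3.16 CPM per kb. Its range there (3.05 to 3.26) lay within that of *ORC6* (2.48 to 3.91). There *CDC6*, *GMNN* and *GINS1* overlapped one another in sequence, at 8.27, 7.57 and 7.36 CPM per kb.

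Outside the set, the genes whose profile was most like the mean of the 10 members over the 16 libraries were *CHAF1B*, *MCM4*, *MCM10*, *CTPS1* and *TYMS*, with Pearson correlations of 0.988 to 0.980. The NAA40-KD (−dox) libraries lay apart from the rest, so these values mainly describe that gap and carry no test. All libraries share this separation and the same count table.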

How the data were processed

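RNA was measured in 16 HCT116 libraries, grouped by their labels. The authors aligned with STAR, assigned reads to genes with featureCounts, and deposited the raw counts of 33937 genes. The methods name RNeasy and a stranded NEBNext kit and the mouse build mm10, the labels name Direct-zol and a standard Illumina preparation, the submitters' processing notes list hg38 and GRCm38, and all 33937 identifiers are human. Total counts of 11065606 to 13855486 per library set the counting error. Gene names and positions came from the gene-name table and GENCODE release 29 (33811 of 33937 matched), and promoter windows from RefSeq. Columns not matched to a sample numbered 0.

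From the counts, edgeR 4.0.16 (R 4.3.3) with TMM normalization and robust quasi-likelihood F tests (two-sided) was run on genes above 1 CPM in 4 or more of the fitted libraries, with Benjamini-Hochberg adjustment over all genes tested. Genes were called at an adjusted p under 0.05. The 4 group comparisons used their own 8 libraries and the interaction all 16. The script was tested on simulated counts with the same spread for every gene and no outlying library, unlike NAA40-KD (−dox). All 10 members passed the filter in all 5 fits. The methods describe independent RNA samples, and whether they came from separate cultures is not stated, so p-values measure the spread between these samples. Counts of any 2 libraries of a group differed by more than sampling noise (chi-square), and no library was merged with another.

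Named genes were all 10 members, *NAA40*, up to 4 called genes with the largest change per list of other pathway genes, and the 5 genes most correlated with the members; *KAT7* and the genes named as rising at (+dox), *CLDN4*, *CDX1*, *VIL1* and the other markers, were named as parts of their lists after their values were seen. The members and lists were chosen with earlier results of these data known. Alternatives were DESeq2 1.42.0, limma-voom (limma 3.58.1), normalization by library size or by upper quartile, no low-count filter, a filter of 1 CPM in each library, 1 fit for all 16 libraries, a replicate block, other thresholds and leaving out each library in turn. The comparison of NAA40-KD (−dox) with SCR (+dox) was chosen after seeing the data.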

Additional observations from a re-analysis of the deposited data

Results flagged for a closer look

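In all, 3 levels came from a library far from the others of its group, out of 44 groups of 4 libraries examined, and chance gives such a gap in about 1 of 20 groups. *CDT1* stood at 125 CPM in NAA40-KD (−dox) replicate 4, where the other 3 libraries had 39.8 to 50.3 CPM. In SCR (−dox) replicate 4, *ORC1* stood at 30.3 CPM (21.9 to 23.2 in the others) and *GMNN* at 40 CPM (25.6 to 26.6 in the others).

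The effect of the line differed between the dox labels by the interaction test (edgeR) for 7 members and for *NAA40*. Of all 14392 genes in that test, 4.31% were called lower and 4.91% higher. The difference, (−dox) minus (+dox), was −1.83 for *GINS2*, −1.58 for *GINS3*, −1.36 for *GINS4*, −1.22 for *CDC45*, −1.15 for *CDC6*, −1.32 for *ORC1* and −1.38 for *ORC6* on the log2 scale, and −1.46 for *NAA40*.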

How the results depend on the processing

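In NAA40-KD (−dox) against SCR (−dox), 7 of 10 members were called and leaving out single libraries gave 7 to 10 (10 without NAA40-KD (−dox) replicate 4), while an adjusted p under 0.01 gave 5, a fold threshold 6, and the other alternatives apart from the replicate block 7 or 8. With SCR (+dox) as the control, chosen after seeing the data, it was 7 with and without a replicate block. With the replicate block, 2 members were called (*GINS2* and *GINS3*), where 0.417% of all genes were called lower. The adjusted p of the other 5 rose to between 0.0524 and 0.077 (edgeR), with log2 fold changes of −1.48 to −0.98. In this comparison 1 of 4 same-numbered pairs had a correlation above 0.1 and 1 of 8 libraries matched its own number best, so the numbers were not taken as pairs. Over all groups it was 10 of 24 pairs (range −0.42 to 0.65), with 4 of 8 libraries matching best at (+dox), 5 of 8 within the NAA40-KD line and 0 of 8 within SCR. Only SCR (+dox) with NAA40-KD (−dox) had every pair above 0.1, and the best match was not checked there. The block changed no other member count by over 1.5 times. In NAA40-KD (+dox) against SCR (+dox), where 3 members were called, the count was 0 in a fit over all 16 libraries, 0 at an adjusted p under 0.01 and 0 past an absolute log2 fold change of 1. There, leaving out single libraries gave 0 (SCR (+dox) replicate 1, NAA40-KD (+dox) replicates 3 and 4), 1 (SCR (+dox) replicates 2 and 4, NAA40-KD (+dox) replicate 1), 2 (NAA40-KD (+dox) replicate 2) or 5 (SCR (+dox) replicate 3). Those fits called 7.03 to 11.3% of all genes higher and 9.78 to 14.1% lower. The estimate of *GINS3* in that comparison, −0.12, ranged from −0.19 without SCR (+dox) replicate 1 to 0.01 without SCR (+dox) replicate 3. In NAA40-KD (−dox) against NAA40-KD (+dox) and in the interaction, leaving out single libraries gave 7 to 10 members. In the interaction those fits called 2.73 to 11.9% of all genes lower. The count of the 46 other pathway genes depended more on single libraries, and the share of all genes called moved the same way. At (−dox) 18 were called, 7 to 11 without any library other than NAA40-KD (−dox) replicate 4, and 33 without that one. The share of all genes called lower was 3.54%, 1.07 to 1.71% and 19.4% (with 17.1% higher). Within the NAA40-KD line 25 were called, with 7 to 14 and 40. The share lower there was 4.71%, 1.31 to 2.92% and 25.8% (with 26.6% higher). In a fit over all 16 libraries the pathway count was 30 (−dox, 10.5% of all genes lower) and 2 (+dox, from 14, with 4.78% lower and 1.93% higher). With a replicate block it was 4 (−dox, 0.417% lower). The medians of the members kept their direction and size, −1.12 to −1.03 at (−dox) under the same exclusions. The cause of these shifts was not tested.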
